A study of Mus musculus with 16 samples.

Results

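The cells described here are the LZ (light zone) GC (germinal center) B cells with the highest expression of 8 mitotic genes. They were selected on a mitotic score, the mean of log2(CPM + 1) of *Ccnb1*, *Ccnb2*, *Cdc20*, *Plk1*, *Cenpe*, *Cenpf*, *Hmmr* and *Tpx2* in each cell, where CPM is the count of a gene scaled to a total of 1e6 in that cell. The fifth of the cells with the highest score, 127 of 637, are called mitotic-high below and the other 510 are called other cells. The comparison with the other cells was made within each host, and a gene whose counts follow those of the 8 genes from cell to cell has to be higher in cells selected this way.

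Single LZ cells were sorted from popliteal lymph nodes of 8 hosts, plated singly and sequenced by SMART-seq2, a full-length method without molecular identifiers. The hosts were male C57BL/6J or B6.SJL mice, 6 to 8 weeks old when primed with ovalbumin in alum. All received B1-8hi B cells, which carry a knock-in heavy chain with high affinity for the hapten NP, as equal parts of B1-8hi BTKC481S cells, whose BTK kinase is resistant to acalabrutinib, and B1-8hi BTKWT cells. All were then boosted with NP-coupled ovalbumin and given the antigen NP-Eα at day 6. Hosts A7, A8, A10, A11 and A12 were given acalabrutinib, a covalent inhibitor of BTK, by gavage at 0, 6 and 12 hours and their cells were sorted at 14 hours, and hosts V5, V7 and V9 were given vehicle in the same way. The names of the cells carry a host, a plate and a well but no genotype, so both genotypes of a host were pooled and the host was the replicate. The cells came from 2 independent experiments, which the labels do not assign to hosts, so experiment is in no fit and its part in the comparisons between treatments was not tested. Cells had a median of 789357 counts, with a range of 132412 to 1825420, and the p-values given here measure the spread between hosts.

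GC B cells divide mainly in the dark zone (DZ), where they mutate their antibody genes, and move to the LZ to take up antigen and compete for T cell help. Before division cyclin B and CDK1 drive entry into mitosis, the kinetochores attach chromosomes to the spindle, and the anaphase-promoting complex with its activator *Cdc20* then marks securin and cyclin B for destruction. The transcripts of this machinery rise together late in the cycle, and are repressed in resting cells by the DREAM complex, which binds a short promoter element, the CHR (cell cycle genes homology region).

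The score split the cells into a large group near 0 and a long tail. It was 0 in 207 of the 510 other cells (40.6%), and their median was 0.242. The median of the mitotic-high cells was 7.64 and the highest cell reached 10.1. The last cell inside had a score of 5.37 and the first outside 5.36, with 16 mitotic-high cells and 15 other cells within 0.5 of the limit, so the limit cuts a continuous range and marks no gap between types. Counts of at least 6 of the 8 genes were found in 118 mitotic-high cells (92.9%) and in 8 other cells (1.57%), and 49 mitotic-high cells had counts of all 8. As a description of the choice itself, *Cenpf*, a kinetochore protein, had a lowest, median and highest level over hosts of 249.7, 461 and 570 CPM in mitotic-high cells and of 3.66, 22.2 and 39.9 CPM in the other cells.

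**Figure D1:**
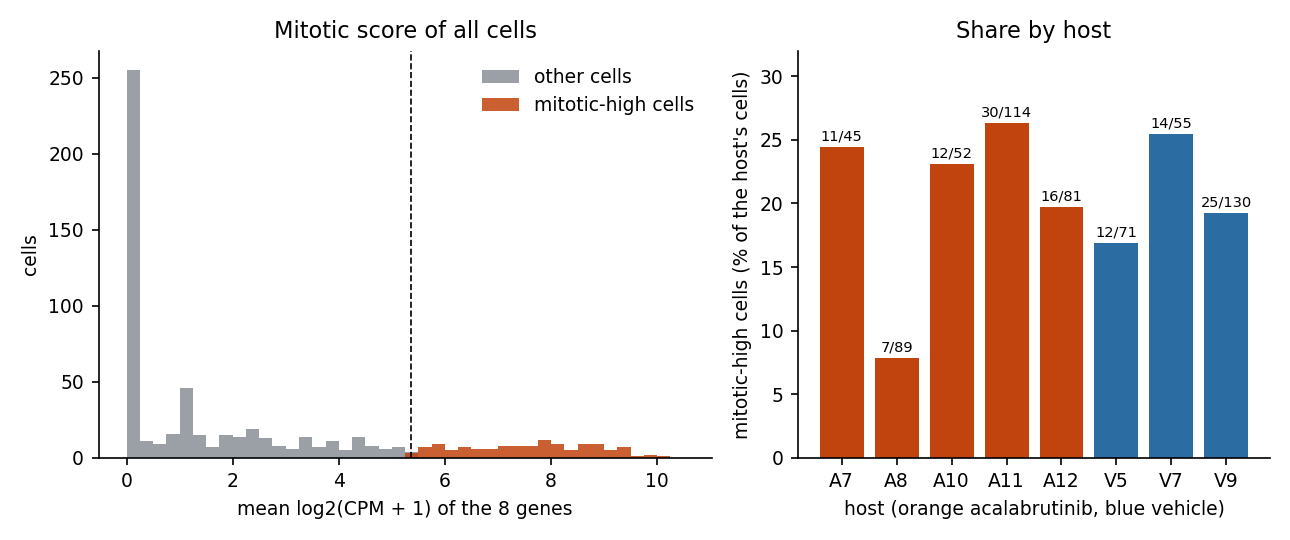
Left, the number of cells at each mitotic score (mean log2(CPM + 1) of the 8 genes) for other cells (grey) and mitotic-high cells (orange), with the limit as a dashed line. Right, mitotic-high cells as a percentage of each host's cells, with their number over the host's cells. The score has no gap at 5.37, and host A8 is the lowest at 7.87%.

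As a further description of the choice, with no test, the cells were also chosen on 4 of the 8 genes at a time. When the 127 cells were chosen on *Ccnb1*, *Cdc20*, *Cenpe* and *Hmmr* alone, 111 of them (87.4%) were among the mitotic-high cells, and the 4 genes left out were higher in 8 of 8 hosts. *Plk1*, the kinase that starts centrosome maturation, was then 306 ± 124 CPM against 51.3 ± 23.0 CPM (SD, n = 8 hosts). Chosen on the other 4 genes, which again shared 111 cells with the mitotic-high cells, the cells had 535 ± 138 CPM of *Cdc20* against 64.8 ± 33.1 CPM. The 8 genes belong to 1 program and the choices share most of their cells, so these values support nothing beyond the choice.

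Mitotic-high cells were found in every host and on all 15 plates. They made up 24.4% of the cells of A7, 7.87% of A8, 23.1% of A10, 26.3% of A11 and 19.8% of A12. In vehicle hosts they made up 16.9% of V5, 25.5% of V7 and 19.2% of V9. Host A8 was the lowest, and its 3 plates had 4.35%, 10.3% and 14.3%. The 2 plates of A11 held 18.2% and 33.9%.

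Mitotic-high cells had more counts and more genes detected. Both bear on whether a gene of the score is detected, and the total enters the CPM, so they are given as a description and nothing is read from a test of them. Their median total was 916504 ± 155877 counts against 728534 ± 130618 in the other cells (SD, n = 8 hosts), and they had 4521 ± 459 against 3817 ± 344 genes detected. Both were higher in 8 of 8 hosts. In the 573 cells with at least 459128 counts, each thinned to that number and with 115 mitotic-high cells chosen anew, the difference in genes detected was 631 in place of 704. The thinning left out 7 mitotic-high and 57 other cells. The percentage of counts from mitochondrial genes was 0.705 ± 0.0936 against 0.785 ± 0.135 and lower in 7 of 8 hosts. This did not pass over the 4 measures other than these 2 (exact two-sided sign-flip test, adjusted p = 0.0625), a choice made after seeing the data. It passed only with these 2 counted in the adjustment, as first planned (exact adjusted p = 0.0312), and that pass was lost in 9 alternatives and kept in 2. Ribosomal protein genes took 1.39% ± 0.298 against 1.46% ± 0.242 of counts (exact adjusted p = 0.227). The share of *Ighm* among heavy chain constant region counts was 10.1% ± 8.14 against 5.90% ± 3.98, higher in 6 of 8 hosts, and did not pass the test (exact adjusted p = 0.219).

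Relative to the other cells, mitotic-high cells had more of many genes of the mitotic machinery. Of the genes called lower, 3 stood in the LZ list, 3 in the B cell identity list and 1 in the DNA replication list, and 44 in none. In counts summed per host and class, 110 of 12397 genes outside the 8 were called higher and 51 lower (edgeR adjusted p under 0.05). These are 0.887% and 0.411% of the genes tested. Of the 51, 20 had under 20 CPM in the other cells and could pass the filter on low counts through those cells alone. So could *Bhlhe40*, *Itgb7* and *Nxph1*, and the number called lower is a description. The host ranges of the classes did not overlap for 139 of the 12397 genes tested and for 96 of the 161 called. DESeq2 on the same sums called 406 higher and 1245 lower, so the share of higher genes among the calls was 68.3% with edgeR and 24.6% with DESeq2. The called higher genes had a median log2 fold of 1.66, and 107 of the 110 were higher in 8 of 8 hosts. The median log2 fold of all genes tested was −0.37, but −0.05 over the 2772 genes with at least 100 CPM, so a fold below 0 in a gene of few counts has to be read against the first value. Genes detected and total counts moved with the class. In cells with at least 4000 genes detected, which left 96 mitotic-high cells and 7 hosts, 11 genes were called higher and 0 lower, of 555 at unadjusted p under 0.05. All 140 of the 161 called genes that were tested there kept their direction.

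Of 133 tested genes in 6 lists of mitotic genes, leaving out the 8, 60 were called higher and 0 lower, with a median log2 fold of 1.35. This is 45.1% against the 0.887% of all genes called higher, in a comparison whose cells were chosen on genes of the same program. The lists held 12 called genes of 19 tested among mitotic kinases, cyclins and their regulators, 15 of 27 among spindle motors and microtubule proteins, 11 of 36 among kinetochore and centromere genes, 5 of 12 in cytokinesis, 16 of 24 among condensin, cohesin and mitotic chromosome genes, and 2 of 16 in anaphase and mitotic exit. *Kif4* stands in both the spindle and the chromosome list.

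Among the kinases, *Nek2*, which separates the centrosomes, ranged over hosts from 316 through a median of 407 to 599 CPM in mitotic-high cells and from 11.7 through 45.3 to 102 CPM in the other cells. Its groups did not overlap (log2 fold 3.45 ± 0.33, edgeR adjusted p = 0.000452). A ± after a log2 fold or log2 difference, here and below, is a standard error worked out from the fold and its test statistic. It is not an SD over hosts, which was 0.93 for the differences of log2(CPM + 1) of *Nek2*. *Cdc25c*, the phosphatase that activates CDK1, ranged from 114 through 198 to 328 CPM against 6.01 through 22.7 to 42.5 CPM (log2 fold 3.30 ± 0.44, edgeR adjusted p = 0.00385). *Ccna2*, cyclin A2, *Cdk1*, *Aurkb*, the kinase of the chromosomal passenger complex, and the checkpoint kinases *Bub1* and *Bub1b* were all called, with log2 folds of 2.16, 1.78, 1.89, 1.90 and 1.79. *Cdc25b*, a relative of *Cdc25c*, had 1.29 and was called too. *Wee1* and *Haspin* were at 0 in every cell of the files, and the reason was not tested.

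Among kinetochore and passenger genes *Cdca8*, borealin of the passenger complex, ranged from 391 through 515 to 586 CPM in mitotic-high cells and from 71.4 through 103 to 138 CPM in the other cells. It was lowest in V9 among the mitotic-high groups, and no host of one class reached the other (log2 fold 2.39 ± 0.16, edgeR adjusted p = 0.000107). *Cenpa*, the histone H3 variant that marks centromeres, ranged from 327 through 431 to 471 CPM against 66.2 through 86.5 to 119 CPM (log2 fold 2.26 ± 0.16, edgeR adjusted p = 0.000107). *Birc5*, survivin, and *Incenp*, both partners of *Cdca8*, had log2 folds of 2.15 and 1.73. The microtubule-binding *Ndc80* and *Nuf2* had 1.68 and 2.25. *Knl1*, a scaffold of the outer kinetochore, had 1.26 (edgeR adjusted p = 0.0852) and did not pass. *Hjurp*, the chaperone of *Cenpa*, had 0.98 and did not pass (edgeR adjusted p = 0.0598).

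Spindle genes gave the highest median fold of the 6 lists, 2.16. *Aspm*, a spindle pole protein, ranged from 97.6 through 213 to 450 CPM against 6.995 through 23.2 to 33.6 CPM (log2 fold 3.45 ± 0.49, edgeR adjusted p = 0.00517). *Kif2c*, a kinesin that depolymerizes microtubules, *Troap* and *Fam83d*, which acts at the spindle, had log2 folds of 3.40, 3.54 and 3.28. The kinesin *Kif11* and *Nusap1*, both of the mitotic spindle, had 1.86 and 1.79, while *Numa1* had 0.69 and did not pass. *Tubb5*, a beta tubulin, was in 99.2% of mitotic-high and 91.8% of other cells and differed by a log2 fold of 0.69 ± 0.08. *Tubb4b* had a log2 fold of 1.71. Its pseudogene *Tubb4b-ps2*, at a mean of 0.788 against 0.219 CPM, and *Ccnb1-ps* were called as well, and these 2 are uncertain because reads of the parent gene could be counted there, which was not tested.

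In cytokinesis *Kif23* and *Racgap1*, the 2 subunits of centralspindlin, had log2 folds of 2.31 and 2.28, and *Kif20a* and *Cep55*, which act at the midzone and at abscission, had 2.94 and 2.24. *Kif23* ranged from 409 through 542 to 758 CPM against 50.7 through 120 to 161 CPM. The groups lay apart. *Rhoa*, the GTPase of the contractile ring, *Septin7* and the formin *Diaph3* had log2 folds of 0.07, 0.30 and 1.301 and did not pass. In anaphase, *Ube2c*, the ubiquitin-conjugating enzyme of the anaphase-promoting complex, ranged from 233 through 287 to 436 CPM against 20.6 through 34.0 to 58.0 CPM (log2 fold 3.19 ± 0.22, edgeR adjusted p = 0.000107), and *Espl1*, separase, had a log2 fold of 2.42. The subunits *Anapc5* and *Anapc1* of the complex had 0.19 and −0.28, the checkpoint protein *Mad2l1* 0.69 and the phosphatase subunit *Ppp2r2a* 0.26, and none of these passed.

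Among chromosome genes *Top2a*, topoisomerase II alpha, ranged from 961 through 1215 to 1415 CPM against 247 through 591 to 746 CPM (log2 fold 1.20 ± 0.17, edgeR adjusted p = 0.00435). The other cells of A7 were the lowest at 247 CPM. *Mki67*, the Ki-67 protein that coats mitotic chromosomes, was in 96.1% of mitotic-high and 49.0% of other cells (log2 fold 1.66). The condensin subunits *Smc2*, *Smc4*, *Ncapd2*, *Ncapg* and *Ncaph2* and the cohesin subunit *Rad21* were called, with log2 folds of 1.23, 0.81, 1.80, 1.14, 0.90 and 1.40. The chromatin protein *Hmgb1* was called as well, with 0.71.

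**Figure D2:**
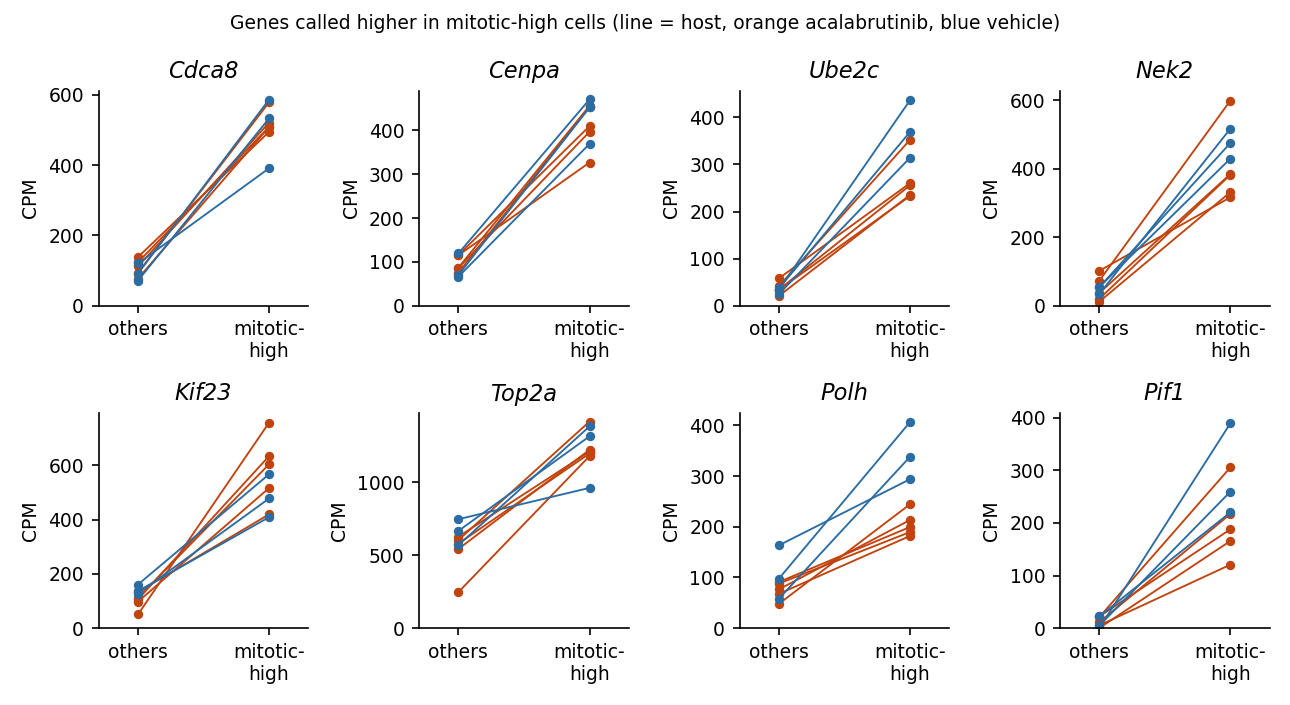
Levels in CPM (from 0, linear) of 8 genes called higher, in the summed other cells and the summed mitotic-high cells of each host, a line for each of the 8 hosts (orange acalabrutinib, blue vehicle). Every line rises, and for *Top2a* the other cells of A7 are the lowest, at 247 CPM.

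By fold, the 10 genes that led the higher calls among the 103 that met the rule for naming were *Pif1*, *Parpbp*, *Troap*, *Aspm*, *Nek2*, *Kif2c*, *Cdc25c*, *Fam83d*, *Ube2c* and *Lockd*. *Pif1*, a DNA helicase that unwinds G-quadruplexes, ranged from 121 through 219 to 390 CPM against 0.0330 through 8.26 to 22.4 CPM. It had counts in 55.9% of mitotic-high and 5.10% of other cells (log2 fold 5.16 ± 1.03, edgeR adjusted p = 0.0367), and was called in 8 of 21 alternatives. Its other cells were at 0.0330 CPM in V7 and 0.302 CPM in A12, and the fitted log2 fold, which leans on such values, ran from 3.67 to 7.28 over the alternatives. *Parpbp*, which restrains homologous recombination, was called in 6 and the noncoding *Lockd* in 4 of the 21.

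Of the 110 genes called higher, 47 stood in none of the lists. These included *Kpna2*, an importin, *Smarca4*, the ATPase of the SWI/SNF remodeler, *Top1*, topoisomerase I, *Lbr*, the lamin B receptor of the nuclear envelope, and the repair genes *Neil1* and *Hmces*, a shield of abasic sites, with log2 folds of 1.63, 0.95, 0.79, 0.61, 0.54 and 0.83. *Cd24a*, a surface glycoprotein of B cells, ranged from 729 through 808 to 880 CPM against 473 through 535 to 623 CPM and the groups lay apart (log2 fold 0.62 ± 0.07, edgeR adjusted p = 0.00130). These 7 genes were named after their values were seen, and *Neil1* was called in 5 of 21 alternatives.

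Promoter windows of the genes called higher held 2 short motifs more often than those of all tested genes, while those of the genes called lower had shares near or below that background. RefSeq windows on GRCm38.p6, from 250 bases before to 50 after the annotated start, were available for 86 of the 110 genes called higher, 38 of the 51 called lower and 7 of the 8 genes of the score. They were searched on both strands for TTTGAA, the common form of the CHR, and for CCAAT, the box bound by NF-Y, and matches of the 2 motifs can share at most 1 base. TTTGAA was in 46 windows of higher genes (53.5%), in 5 of lower genes (13.2%), and in 1170 of the 9151 windows of tested genes (12.8%). CCAAT was in 70.9%, 39.5% and 39.5%. Both were in 45.3%, 2.63% and 5.54%. The genes called lower include those that could pass the filter on low counts through the other cells alone, so their shares are a description. Of all 27025 windows 18.1% held TTTGAA and 37.9% CCAAT. A match of letters is not a binding site. Of the 7 windows of the score genes 5 held TTTGAA and all held CCAAT, and the 4 with TTTGAA nearest the start are shown because they place both elements in the window of a gene on which the cells were chosen. They run 5′ to 3′ on the strand of the gene, and capitals mark TTTGAA and CCAAT or its reverse complement ATTGG.

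*Cenpf* (chr1:189688037-189688336, minus strand): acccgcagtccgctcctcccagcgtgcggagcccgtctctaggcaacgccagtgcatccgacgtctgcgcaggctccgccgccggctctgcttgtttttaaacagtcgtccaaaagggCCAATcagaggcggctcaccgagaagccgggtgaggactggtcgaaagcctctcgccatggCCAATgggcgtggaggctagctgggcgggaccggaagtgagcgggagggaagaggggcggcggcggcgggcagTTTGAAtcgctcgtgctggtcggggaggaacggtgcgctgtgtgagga
*Ccnb2* (chr9:70421505-70421804, minus strand): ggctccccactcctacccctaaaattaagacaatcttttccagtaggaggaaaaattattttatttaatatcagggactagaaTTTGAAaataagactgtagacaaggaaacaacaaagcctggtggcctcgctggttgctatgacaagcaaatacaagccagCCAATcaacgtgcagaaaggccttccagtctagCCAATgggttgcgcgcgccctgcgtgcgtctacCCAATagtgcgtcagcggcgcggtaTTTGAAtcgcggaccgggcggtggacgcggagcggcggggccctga
*Hmmr* (chr11:40733388-40733687, minus strand): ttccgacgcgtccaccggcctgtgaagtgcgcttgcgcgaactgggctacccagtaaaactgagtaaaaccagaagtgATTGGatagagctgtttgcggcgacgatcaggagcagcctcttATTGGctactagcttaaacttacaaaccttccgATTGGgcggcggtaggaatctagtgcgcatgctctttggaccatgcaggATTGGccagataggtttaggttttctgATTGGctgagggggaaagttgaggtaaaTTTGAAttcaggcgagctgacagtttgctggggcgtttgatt
*Cdc20* (chr4:118437294-118437593, minus strand): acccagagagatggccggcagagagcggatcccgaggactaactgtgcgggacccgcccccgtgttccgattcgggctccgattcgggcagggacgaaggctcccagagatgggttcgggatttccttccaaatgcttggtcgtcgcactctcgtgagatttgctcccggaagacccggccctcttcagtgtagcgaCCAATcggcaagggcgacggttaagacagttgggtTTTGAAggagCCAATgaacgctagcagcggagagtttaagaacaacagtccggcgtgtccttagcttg

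The centre of the nearest TTTGAA lay 4.5, 6.5, 10.5 and 15.5 bases from the annotated start of *Cenpf*, *Ccnb2*, *Hmmr* and *Cdc20*, and 32.5 bases from that of *Plk1*. In these 4 windows TTTGAA stood on the strand of the gene, with 2, 3, 5 and 2 CCAAT boxes. The windows of *Ccnb1* and *Cenpe* held CCAAT 2 times and 1 time and no TTTGAA.

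Of 40 tested DNA replication genes, 0 were called higher and 1 lower, against 0.887% and 0.411% of all genes. The list had a median log2 fold of −0.39, and 30 of the 40 had a fold below 0. The median was −0.37 over all genes and −0.05 over those with at least 100 CPM. *Mcm6*, a subunit of the replicative helicase, ranged from 142 through 383 to 631 CPM in mitotic-high cells and from 428 through 693 to 926 CPM in the other cells. The groups overlapped, but all 8 hosts were lower (log2 fold −0.95 ± 0.20, edgeR adjusted p = 0.0476), and 6 of 21 alternatives made the call. *Pola1*, *Mcm5*, *Rrm2* and *Rrm1* had log2 folds of −0.33, −0.42, 0.19 and 0.84 and did not pass, the last of these, a subunit of ribonucleotide reductase, higher in 7 of 8 hosts. The sum of the list was lower in 7 of 8 hosts, with a median of 6936 against 8844 CPM. The median replication score per cell, a mean of log2(CPM + 1) over the same list, was 3.06 ± 0.667 against 2.65 ± 0.855, higher in 6 of 8 hosts (exact adjusted p = 0.156). With counts thinned to equal depth the difference of the score was 0.111 in place of 0.417. Homologous recombination and Fanconi genes had 0 calls of 19 tested and a median of −0.23, with −0.23 for the helicase *Brip1*, 1.09 for the glycosylase *Neil3*, −0.54 for *Bard1* and 0.45 for *Rad54b*.

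Few genes were called between mitotic-high cells and cells high in DNA replication genes. The fifth of the cells with the highest replication score shared 28 cells with the mitotic-high cells (22.0% of either), and the other 99 were compared with them within hosts. Of 9656 genes outside both choices, *Cenpa* alone was called higher (0.0104% of genes) and none lower (0%), with 494 genes at unadjusted p under 0.05. Its log2 fold was 1.97 (edgeR adjusted p = 0.0327), and the call was lost without any one of hosts A8, A10, A11, V5, V7 or V9. DESeq2 called 402 higher and 214 lower. As values, spindle genes had a median log2 fold of 1.44 in this comparison, mitotic kinases and cyclins 1.19, and condensin, cohesin and chromosome genes 0.20. The LZ list had a median of −0.10, with 10 of 27 genes above 0 and 0 called, and the median of all genes was 0.15. *Top2a*, *Smc2* and *Ncapg* had 0.15, 0.10 and 0.05. Each host gave 5 to 23 replication-high cells to this comparison.

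Genes of the LZ program were lower where they passed the test. Of 27 tested genes for the LZ state and T cell help, 3 were called lower (11.1%, against 0.411% of all genes) and 0 higher. In this list 23 had a log2 fold below 0 and 4 above 0, with a median of −0.55. The median was −0.37 over all genes and −0.05 over those with at least 100 CPM. *Cd83*, a surface marker of LZ cells, ranged from 473 through 659 to 1450 CPM in mitotic-high cells and from 1385 through 1591 to 1920 CPM in the other cells. Hosts A8 and A10 had the highest *Cd83* among mitotic-high cells, 1139 and 1450 CPM, and the classes overlapped through A10 alone (log2 fold −1.14 ± 0.16, edgeR adjusted p = 0.00498). *Cd86*, a costimulatory ligand for T cells, ranged from 63.0 through 190 to 461 CPM against 380 through 493 to 650 CPM (log2 fold −1.36 ± 0.26, edgeR adjusted p = 0.0272). A10 was again the host in which the classes lay closest, at 461 and 494 CPM. *Cd74*, the invariant chain of MHC class II, was in 100% of cells of both classes and lower in 8 of 8 hosts (log2 fold −0.34 ± 0.07, edgeR adjusted p = 0.0309). The MHC class II genes *H2-Ab1*, *H2-Aa* and *H2-Eb1* had −0.24, −0.20 and −0.23 and did not pass, and neither did *Fcer2a*, *Il21r* or *Il4ra* at −0.92, −0.89 and −0.82. *H2-Eb1*, *Fcer2a*, *Il21r* and *Il4ra* were named after their values were seen, and the 4 genes above 0 are not named here. Against replication-high cells *Cd83*, *Cd86* and *Cd74* had log2 folds of −0.84, −0.84 and −0.10, and none was called. The calls of *Cd83*, *Cd86* and *Cd74* were made in 19, 11 and 11 of 21 alternatives. In cells with at least 4000 genes their log2 folds were −0.93, −1.09 and −0.19, and none passed (edgeR adjusted p = 0.128, 0.692 and 0.999).

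Of 11 tested genes of the DZ list 1 was called higher and 0 lower, against 0.887% and 0.411% of all genes, with a median of 0.15. The called gene was *Polh*, DNA polymerase eta, which copies past damaged bases and writes A:T mutations during somatic hypermutation. It ranged from 182 through 229 to 406 CPM against 48.0 through 82.2 to 163 CPM and the groups lay apart (log2 fold 1.66 ± 0.23, edgeR adjusted p = 0.00435), a call made in 20 of 21 alternatives. *Cxcr4*, the chemokine receptor that draws cells to the DZ, was higher in 8 of 8 hosts, 67.3 against 38.1 CPM at the median, but did not pass (log2 fold 0.96 ± 0.34, edgeR adjusted p = 0.284). *Gcsam*, a GC signaling adaptor, was higher in 7 of 8 hosts (log2 fold 0.77, edgeR adjusted p = 0.223). *Foxo1*, a transcription factor of the DZ program, *Foxp1* and the mismatch repair gene *Msh6* had 0.15, −0.51 and −0.30.

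**Figure D3:**
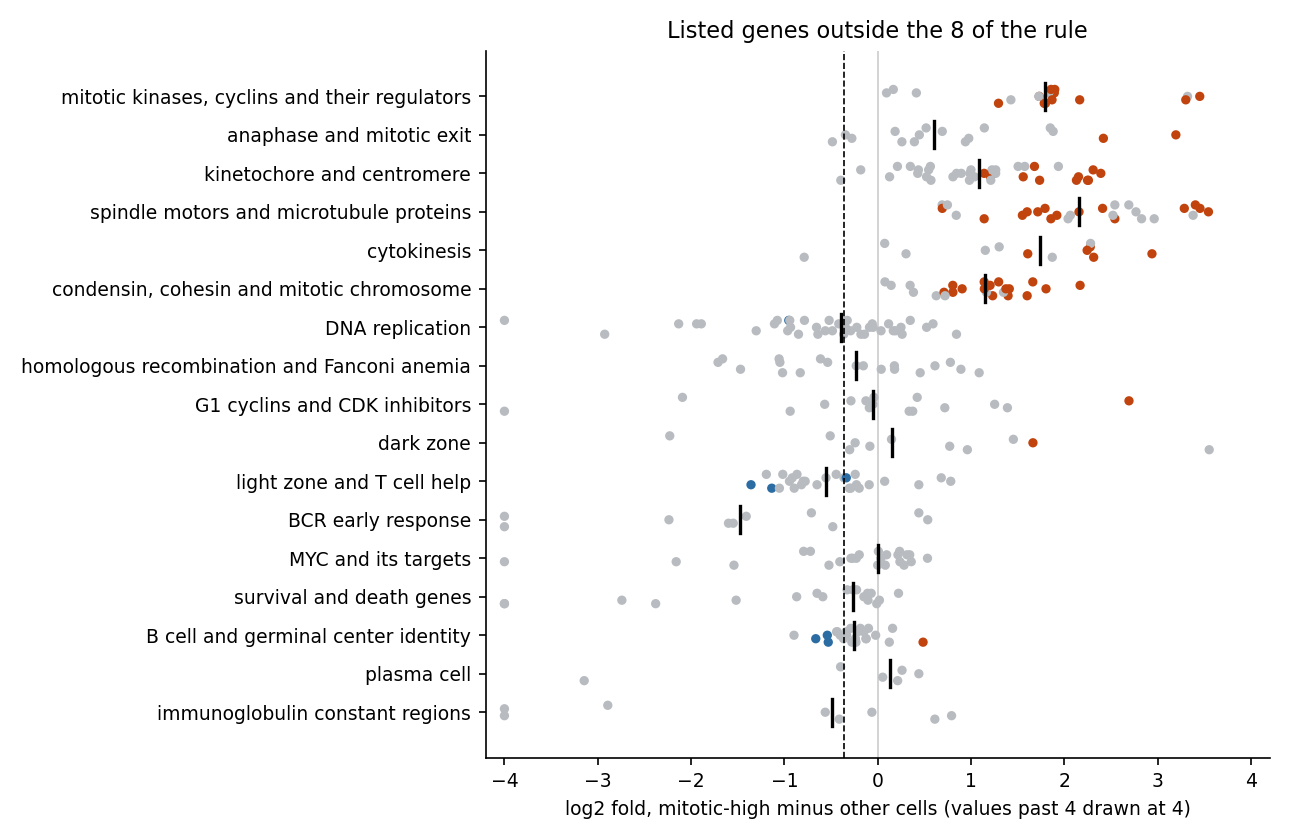
Log2 fold of mitotic-high minus other cells (linear axis, values past 4 drawn at 4) for the tested genes of 17 lists, the 8 score genes left out. Orange is called higher, blue called lower, grey not called; the bar is the median of a list and the dashed line the median of all genes, −0.37. The 6 mitotic lists lie to the right, with 0 genes called lower.

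Markers of the B lineage were present in nearly all cells of both classes. *Pax5* was in 93.7% of mitotic-high and 95.9% of other cells and *Cd79a*, a chain of the BCR, in 100% and 99.4%. Of 24 tested identity genes 1 was called higher and 3 lower, against 0.887% and 0.411% of all genes, with a median of −0.26. *Ebf1*, a transcription factor of the B lineage, ranged from 1268 through 1640 to 2383 CPM against 2266 through 2716 to 3237 CPM (log2 fold −0.66 ± 0.09, edgeR adjusted p = 0.00312). *Ikzf3*, the transcription factor Aiolos, ranged from 545 through 770.1 to 846 CPM against 934 through 1105 to 1238 CPM, and its groups lay apart (log2 fold −0.54 ± 0.09, edgeR adjusted p = 0.0118). *Pou2af1*, the coactivator OCA-B, went the other way, 881 through 1083 to 1262 CPM against 677 through 756 to 941 CPM (log2 fold 0.49 ± 0.09, edgeR adjusted p = 0.0279), and was called in 5 of 21 alternatives. *Bcl6*, the repressor that defines GC B cells, had −0.02, *Btk* 0.16, *Bach2* −0.21 and *Ikzf1* −0.12, none of which passed.

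Of the 51 genes called lower, 44 stood in none of the lists and 20 had under 20 CPM in the other cells. *Cd180*, a receptor related to the Toll-like receptors, ranged from 417 through 518 to 600 CPM against 693 through 973 to 1085 CPM (log2 fold −0.83 ± 0.11, edgeR adjusted p = 0.00423). *Ptpn6*, the phosphatase SHP-1, *Pik3ap1*, an adaptor of PI3K named BCAP, and *Cd53*, a tetraspanin, had log2 folds of −0.56, −0.58 and −0.56. The groups of *Cd180*, *Ptpn6* and *Cd53* lay apart, as did those of 96 of the 161 called genes. These 4 were named after their values were seen. *Lta*, the cytokine lymphotoxin alpha, ranged from 36.5 through 60.9 to 153 CPM against 134 through 164 to 544 CPM (log2 fold −1.43 ± 0.27, edgeR adjusted p = 0.0251), and 10 of 21 alternatives made the call.

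The 10 genes with the largest falls among the 31 that met the rule for naming were *Bhlhe40*, *Itgb7*, *Nxph1*, *Plekhm3*, *Nxpe4*, *Hivep3*, *Smarca2*, *Lrrk2*, *St7* and *Lta*. The first 3 had a median over hosts under 1 CPM in mitotic-high cells and could pass the filter on low counts through the other cells, so their place by fold is a description that supports nothing. *Bhlhe40*, a transcription factor, had counts in 0.787% of mitotic-high and 5.88% of other cells, at a highest host level of 6.51 CPM against a lowest of 15.6 CPM, and the fitted fold of such a gene depends on the prior count and is not given. Its call was lost without A11. *Plekhm3* ranged from 33.3 through 79.6 to 180 CPM against 261 through 370 to 479 CPM (log2 fold −2.05 ± 0.24, edgeR adjusted p = 0.00150), a call made in 20 of 21 alternatives. *Hivep3*, *Smarca2*, an ATPase of the SWI/SNF remodeler, and *Lrrk2*, a kinase, had log2 folds of −1.86, −1.85 and −1.77. The calls of *Itgb7*, *Hivep3* and *Nxpe4* were made in 6, 12 and 12 of 21 alternatives, and that of *Nxph1* in 9 of the 20 that tested it. Those of *St7*, *Smarca2* and *Lrrk2* were made in 14, 17 and 18 of 21, and that of *Bhlhe40* in 16 of 20. *Smarca4*, the alternative ATPase of that remodeler, was among the genes called higher.

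**Figure D4:**
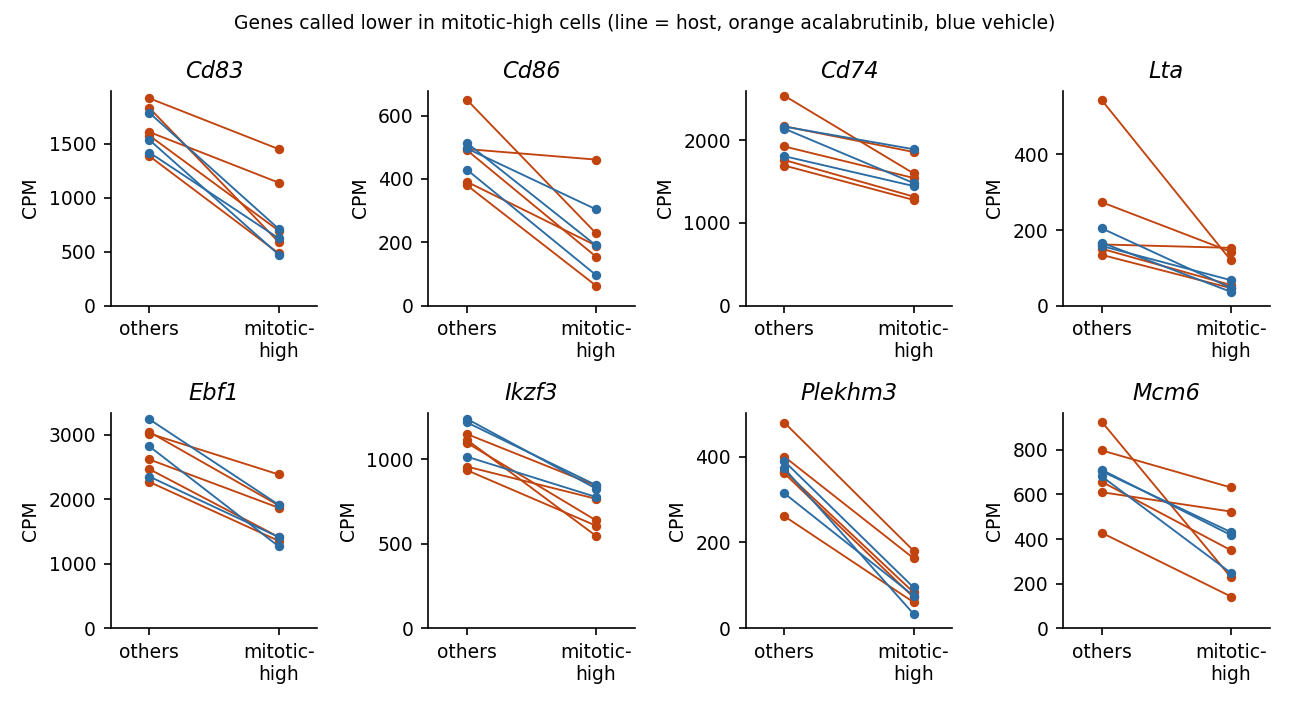
Levels in CPM (from 0, linear) of 8 genes called lower, in the summed other cells and the summed mitotic-high cells of each host, a line for each of the 8 hosts (orange acalabrutinib, blue vehicle). Every line falls, and A10 keeps the highest *Cd83* and *Cd86* among mitotic-high cells, 1450 and 461 CPM.

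In the lists for growth, signaling and survival at most 1 gene was called per list. Over all genes 0.887% were called higher and 0.411% lower. MYC and its targets had 0 of 24 tested genes called and a median of 0.00, with *Eif5a*, *Ldha*, *Ncl* and *Npm1* at 0.23, −0.23, 0.10 and 0.01. BCR early response genes had 0 of 10 and a median of −1.48, and were sparse, as *Egr1* had counts in 16.5% of mitotic-high and 22.9% of other cells, *Junb* in 37.8% and 42.4%, and *Cd69* and *Ier2* had log2 folds of −0.71 and −1.60. Survival and death genes had 0 of 19 and a median of −0.27, with *Xiap*, *Fas*, *Birc3* and *Bid* at −0.01, −0.15, −0.33 and −0.23. Among 16 tested G1 cyclins, their kinases and inhibitors 1 was called, *Cdkn3*, a phosphatase of CDKs (log2 fold 2.69 ± 0.44, edgeR adjusted p = 0.0126), while *Ccnd3*, *Cdk4*, *Btg2* and *Cdk6* had −0.09, −0.29, −0.13 and 0.42. Plasma cell genes had 0 of 6 and a median of 0.13, with *Jchain*, *Xbp1*, *Irf4* and *Ell2* at 0.26, 0.05, 0.44 and −0.40. Immunoglobulin constant regions had 0 of 8, with *Ighg1*, *Ighm*, *Iglc2* and *Ighd* at −0.06, 0.61, −0.56 and 0.79.

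Apart from *Lck* and *Pecam1*, markers of other cell types were low in both classes. The 12 T cell genes summed to a median of 244 CPM in mitotic-high and 298 CPM in other cells, of which *Lck* alone gave 217 and 280 CPM, and *Cd3e*, *Trbc1* and *Trbc2* were at 0 in mitotic-high cells. The 12 macrophage and monocyte genes summed to 47.4 and 37.6 CPM, led by *Cd68* at 21.5 and 20.5 CPM, with *Lyz2* and *C1qa* at 0 in mitotic-high cells. *Itgam* and *Cd14* were at 0 in every cell of the files, as were *Bub3* and *Prc1*, which dividing cells use, so these zeros say nothing of macrophages. The 9 stromal and follicular dendritic cell genes in the files summed to 159 and 112 CPM, led by *Pecam1* at 154 and 105 CPM, and *Cxcl13* was likewise at 0 in every cell of the files. None of the 6 genes of these lists that could be tested was called. Their part in the other results was not tested.

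The mitotic-high cells varied among themselves in how far they stood from the limit. Of the 127, the 64 at or above the median score were set beside the 63 below it, as a description pooled over hosts. *Mki67* was 946 and 945 CPM in these sets, against 329 in other cells, and *Ccna2* was 519 and 524 CPM. *Cenpa* was 493 and 334 CPM, *Pif1* was 306 and 152 CPM, and *Mcm6* was 367 and 515 CPM. *Cd83* was 730 and 697 CPM and *Ebf1* was 1565 and 1555 CPM, against 1570 and 2623 CPM in other cells.

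The share of mitotic-high cells was not detectably changed by treatment. It was 20.3% ± 7.35 (SD, n = 5 hosts) with acalabrutinib and 20.5% ± 4.42 (n = 3 hosts) with vehicle, a difference of −0.238 percentage points (exact two-sided permutation test over 56 splits, p = 0.982, where 0.0179 is the smallest p possible). The difference was 2.87 points without A8 and 2.22 without V7, so its sign rests on single hosts. Each host's share is over both genotypes.

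Within mitotic-high cells no gene was called between acalabrutinib and vehicle. Each sum holds BTKWT cells and acalabrutinib-resistant BTKC481S cells together, so an absence of calls cannot speak to the BTKWT cells alone. Of 11730 genes 0 were called by edgeR (0%), 312 had an unadjusted p under 0.05, and DESeq2 called 113 higher and 19 lower with acalabrutinib. The difference between treatments was likewise not called to differ between mitotic-high and other cells for any of 17942 genes (0%, 452 at unadjusted p under 0.05, 350 called by DESeq2). *Cdca8*, *Cenpa* and *Top2a* had log2 differences of 0.05, −0.08 and 0.02 between treatments. *Polh*, looked at after its values were seen, was 206 ± 24.6 CPM in mitotic-high cells of acalabrutinib hosts and 346 ± 56.8 CPM in those of vehicle hosts (log2 difference −0.76 ± 0.22, edgeR adjusted p = 0.9998). *Polh* did not pass and was picked out of 11730 genes, so its values are a description and nothing is read from them on the treatment.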

How the data were processed

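Per the labels and the study's methods, reads of single LZ cells were aligned with STARsolo 2.7.10a to GRCm39 with an Ensembl annotation. The authors deposited one table of counts, 56691 gene entries by 637 cells, of reads that overlap exons or introns, with reads at the same position counted once and no normalization. Without molecular identifiers amplified copies can remain. Cells were sorted singly, so no doublet caller was run.

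CPM were computed per cell for the score and from summed counts per host and class for levels. Counts summed per host and class (at least 5 cells) were tested with edgeR 4.0.16 (quasi-likelihood, TMM, filterByExpr, host as block, since both classes come from the same animal), with DESeq2 1.42.0 as an alternative, in R 4.3.3. Benjamini-Hochberg adjustment ran over all genes tested. Cell measures used medians per host. Sums over mitotic-high cells held 6059698 to 32405851 counts a host. Python 3.11.15, NumPy 2.4.6, SciPy 1.17.1, pandas 2.3.3 and matplotlib 3.10.9 were used. Scripts were tested on simulated data. Where entries share a symbol, the first was used.

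The cells and the gene lists were chosen with earlier results of these data known. Genes were named as the 10 higher and 10 lower calls of largest fold with at least 20 CPM, the same direction in every host and a symbol that is no Gm or Rik name, and in each list from the 4 most abundant genes and all called genes. Others were named after their values were seen. Promoters are from RefSeq (GRCm38.p6), another build than that of the counts. Mice of the experimental groups were littermates, and plates are numbered within hosts. The limit of 4000 genes and the sums per plate were alternatives chosen after seeing the data. Genotypes were not compared. Results on some genes are not reported here.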

Additional observations from a re-analysis of the deposited data

Results flagged for a closer look

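Over 27 sets of host values, a host far from the rest (Dixon's test at the 95% level) was found in 2 cases, and chance alone flags about 1 in 20 sets. The mitochondrial percentage of host A7 was lower by 0.257 percentage points in mitotic-high than in other cells (a difference of −0.257), while the median of the other 7 hosts was −0.0575. Its other cells had the highest mitochondrial percentage of any host, 1.05. For *Bhlhe40* the difference of log2(CPM + 1) was −2.26 in host A11, against a median of −4.56 in the others.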

How the results depend on the processing

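Against the other cells 161 genes were called. The total of calls, which can include other genes, was 113 to 146 without 1 host and 200 without the replicate block. Choices by the 159 highest cells, by a rank within each host, by the number of score genes or by 4 of the 8 genes gave 163 to 175. Without 1 host, 80 to 94 of the 110 higher calls and 20 to 31 of the 51 lower calls were made again. DESeq2 called 1651, of which 24.6% were higher, against 68.3% by edgeR. The tenth of cells with the highest score gave 67 calls (6 hosts), and cells with at least 4000 genes 11, all higher. Sums per plate gave 149 calls and thinned counts 140. Without the filter on low counts 115 were called, and the causes were not tested. Against replication-high cells, where *Cenpa* was called, the calls numbered 616 with DESeq2, 19 without the replicate block, 5 with thinned counts or a rank within each host, 2 and 3 with either 4 of the score genes, 0 without the filter, with the tenth of cells or with at least 4000 genes, 1 with the 159 highest cells or the number of score genes, and 0 to 5 without 1 host (5 without A7). The 1 call with those 2 choices was lower and was not *Cenpa*. Between treatments DESeq2 called 132 genes within mitotic-high cells and 350 for the difference between classes; the other alternatives called 0. The share differed by 1.48 percentage points with thinned counts and 0.581 with the number of genes, both of the opposite sign, by −3.35 with the tenth of cells, −1.99 with the 159 highest cells, −0.409 and −3.83 with either 4 of the score genes, and by −2.05 to 2.87 without 1 host, and passed in none of these. The mitochondrial difference of −0.0800 percentage points passed only when the 2 measures of depth were counted in the adjustment (exact adjusted p = 0.0312, and 0.0625 without them, a choice made after seeing the data), and was −0.0482 thinned, −0.0763 within each host and −0.0915 to −0.0547 without 1 host. Its pass was lost in 9 alternatives and kept in 2. The ribosomal protein difference of −0.0738 percentage points was 0.00985 within each host and −0.112 to −0.0446 without 1 host. The *Ighm* difference of 4.23 percentage points was 2.49 without A8 and up to 5.81 without another host. The replication score difference was 0.311 to 0.557 without 1 host. Without V9 its exact adjusted p was 0.0469 over all 6 measures and 0.0625 over 4. None of the 20 genes named for the largest folds changed direction in the alternatives that tested it, and 157 of the 158 called genes tested with the tenth of cells kept theirs. Other genes named were not all followed. Precision is limited by 7 to 30 mitotic-high cells a host. The sets of 4 score genes were used beyond the first comparison only after seeing the data.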
